A study of Mus musculus with 12 samples.

Results

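The 9 transcripts described are 8 genes of the acute phase response, the complement system and the serpin family, and Acod1. They are Saa3, Lrg1, Hp, Serpina3f, Serpina3g, Serpina3n, C3, C4b and Acod1, which are 9 of the 55291 gene symbols in the count table. The 9 were selected by symbol, and their selection drew on known control by STAT3 or inflammation and on changes in these same libraries, so that their levels and differences are given as descriptions, with no p-value. Of the 9 members, 8 passed the filter on low counts, and Serpina3n had 0 counts in all 12 libraries.

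RNA came from mouse bone marrow cells that stayed non-adherent, labelled progenitors, during about 24 hours in alpha-MEM, with the donor mice about 8 weeks of age. There were 4 groups with 3 libraries each. Homozygous SCFA mice carried R26STAT3Cstopfl/fl with CD4Cre and drank water with short-chain fatty acids (SCFA), made by gut bacteria when they ferment fibre. Homozygous untreated mice carried the same alleles and were given no treatment. Control SCFA mice, whose genotype is labelled only as control, drank the SCFA, and control untreated mice were given no treatment. Only homozygous untreated 1 has R26 (the Rosa26 locus) in its genotype label, and the other 5 homozygous libraries, labelled STAT3Cstopfl/fl CD4Cre, were treated as the same genotype because their titles say homozygous. The transgene STAT3C encodes STAT3, a transcription factor, in a constitutively active variant. CD4Cre, a recombinase driven by the CD4 promoter, removes the stop cassette mainly in T cells, whereas the RNA came from marrow progenitors. Gene counts do not show whether the sequenced cells carried the active allele. All SCFA libraries carry a label dated 3/30 and all untreated libraries one dated 3/1, so treatment and label date cannot be told apart, while each comparison of genotypes lies within 1 date.

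Acute phase proteins are plasma proteins whose synthesis changes in inflammation. In the liver, interleukin 6 acts through STAT3, and interleukin 1 and tumour necrosis factor act through NF-kB and C/EBP factors, to raise many of their genes. Neutrophils, monocytes and macrophages express several of them as well: haptoglobin and Lrg1 protein are stored in neutrophil granules, and Saa3 is the serum amyloid A gene of mouse macrophages and other extrahepatic cells. The Serpina3 genes of the mouse are a cluster that corresponds to 1 human gene of a secreted serine protease inhibitor. C3 and C4b encode the central complement proteins that bind covalently to targets, and Acod1 encodes the mitochondrial enzyme that makes itaconate from cis-aconitate in activated macrophages.

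Libraries held 16954355 to 20748995 counts. Levels are CPM, counts relative to the library total after scaling by TMM factors of 0.947 to 1.10. Over replicate pairs, chi-square per degree of freedom was 31.7 to 96.2 among control untreated libraries and 12.6 to 35.0 in the other groups, so control untreated libraries differed most among themselves. The 3 progenitor markers Kit, Cd34 and Flt3 summed to 125 to 184 CPM over all libraries, and the 10 late neutrophil markers to 36940 to 78610 CPM. T cell markers summed to 26.9 to 64.0 CPM. The labels do not state whether replicate libraries are separate mice, so errors and p-values measure the spread between libraries, which may be technical.

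In the homozygous SCFA libraries, 7 of the 8 measured members lay above control SCFA in every library, with C4b 4.17-fold, Lrg1 2.37-fold, Hp 2.15-fold and Serpina3g 2.01-fold higher. Without SCFA the homozygous libraries lay above control libraries for 4 members, Serpina3f (11.4-fold), Acod1 (4.18-fold), Serpina3g (2.09-fold) and Saa3 (1.38-fold), whereas Lrg1 and Hp had log2 fold changes of -0.49 ± 0.19 and -0.36 ± 0.16 (SE) with overlapping groups. Among all 15674 genes tested, the genotypes likewise did not overlap for 39.5% under SCFA and for 32.4% without it. SCFA went with lower Lrg1 and Hp in control libraries and with higher Lrg1 in homozygous libraries. C4b was high in homozygous SCFA libraries and low in the other 3 groups, and Serpina3f was high in homozygous untreated libraries and low in the other 3 groups.

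**Figure D1:**
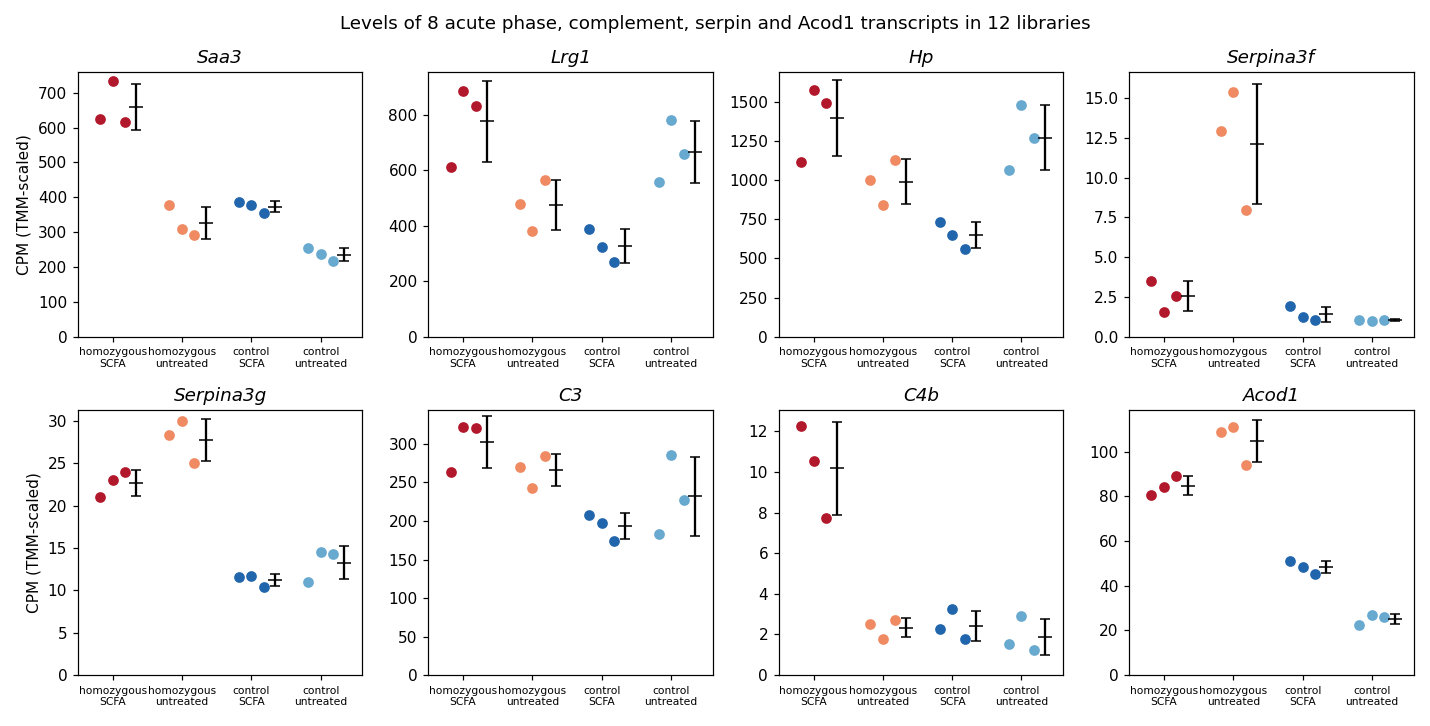
Level (CPM scaled by TMM, linear axes from 0) of the 8 measured members in each of 12 libraries, replicates 1 to 3 from left in each group, with the group mean and SD as a black bar. Saa3 and C4b are highest in the 3 homozygous SCFA libraries, Serpina3f in the 3 homozygous untreated libraries, and Acod1 falls into 4 separate steps.

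Compared per kilobase of exon, the order of levels was the same in all 4 groups except that C4b stood above Serpina3f in homozygous SCFA libraries. In homozygous SCFA libraries the mean was 868 CPM per kilobase for Hp, 551 for Lrg1, 253 for Saa3, 58.8 for C3, 32.3 for Acod1, 10.8 for Serpina3g, 1.79 for C4b and 1.11 for Serpina3f. In control untreated libraries it was 791.5 CPM per kilobase for Hp, 473 for Lrg1, 90.5 for Saa3, 45.1 for C3, 9.54 for Acod1, 6.29 for Serpina3g, 0.462 for Serpina3f and 0.331 for C4b. Serpina3f and C4b were thus the rarest of the measured members, with 18 to 300 and 25 to 229 counts per library.

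Saa3 (chr7:46711998-46715700, mm10, minus strand) encodes serum amyloid A3, a lipid-binding acute phase protein. Its level was 623.5, 734 and 617 CPM in homozygous SCFA libraries, 378, 308 and 292 CPM in homozygous untreated, 386, 378 and 356 CPM in control SCFA, and 253, 237 and 217 CPM in control untreated libraries. Homozygous SCFA stood above all other libraries, control untreated stood below all, and the 2 groups between overlapped. Under SCFA the homozygous mean was 658 ± 65.6 CPM and the control mean 373.5 ± 15.4 CPM (SD, n = 3 each), a log2 fold change of 0.82 ± 0.12 (SE). Without SCFA the means were 326 ± 45.6 and 236 ± 18.2 CPM, a log2 fold change of 0.47 ± 0.12. The treatment difference was 1.01 ± 0.12 in homozygous and 0.66 ± 0.12 in control libraries, so Saa3 was higher with SCFA in both genotypes. Other serum amyloid genes were barely counted: Saa1 had 0, 2, 9 and 0 counts over the 3 libraries of homozygous SCFA, homozygous untreated, control SCFA and control untreated.

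Lrg1 (chr17:56119678-56122001, mm10, minus strand) encodes leucine-rich alpha-2-glycoprotein 1, a secreted partner of TGF-beta receptors, and Hp (chr8:109575128-109579172, minus strand) encodes haptoglobin, which binds free haemoglobin. Lrg1 had 609.6, 885 and 832 CPM in homozygous SCFA libraries, 476.5, 383 and 564 in homozygous untreated, 389.8, 324 and 269 in control SCFA, and 559, 781 and 659 CPM in control untreated. For Hp the values were 1118, 1574 and 1491 CPM in homozygous SCFA, 1000, 841 and 1131 in homozygous untreated, 731, 651 and 562.5 in control SCFA, and 1067, 1479 and 1268 CPM in control untreated. For both genes homozygous SCFA and control untreated overlapped at the top and control SCFA was low. Control SCFA lay below every library of the other groups for Hp, while for Lrg1 it overlapped homozygous untreated.

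The pair was higher in homozygous than in control libraries under SCFA, while the genotypes overlapped without it. Under SCFA, Lrg1 averaged 775 ± 146 CPM in homozygous and 327.5 ± 60.5 CPM in control libraries, a log2 fold change of 1.24 ± 0.19, and Hp 1394 ± 243 and 648 ± 84.1 CPM, a log2 fold change of 1.10 ± 0.16. SCFA against untreated in control libraries gave -1.02 ± 0.19 for Lrg1 and -0.97 ± 0.16 for Hp, and in homozygous libraries 0.71 ± 0.19 and 0.49 ± 0.16. The genes kept a nearly fixed proportion: the ratio of Lrg1 to Hp counts, not corrected for length, was 0.455 to 0.562 in all 12 libraries. The sum of the 5 neutrophil precursor markers (Elane, Mpo, Prtn3, Ctsg and Ms4a3, none at 0 in any group) was also lowest in control SCFA libraries. It was 2580 to 3482 CPM in homozygous SCFA, 2811 to 3644 in homozygous untreated, 1771 to 2168 in control SCFA and 2740 to 3945 CPM in control untreated libraries. With SCFA against untreated, 3 of the 5 fell in control libraries (median log2 fold change -0.74) and 1 in homozygous libraries (median 0.02), and 0 rose in either. The sum of the 10 late neutrophil markers went the other way between the control groups. It was 59580 to 64290 CPM in control SCFA, where Lrg1 and Hp were lower, and 36940 to 56080 CPM in control untreated libraries. Of the single late neutrophil markers, 4 rose and 4 fell with SCFA in control libraries. The part of either set of markers in the Lrg1 and Hp differences was not tested. In RNA of mixed cells such as these, fewer cells of a type and less RNA per cell cannot be told apart.

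Serpina3f (chr12:104214544-104221129, mm10, plus strand) and Serpina3g (chr12:104236245-104241939, plus strand) are neighbours in the Serpina3 cluster. Their reading as separate genes has a limit, since 10.6% of the 50-base words of Serpina3f transcripts and 15.5% of those of Serpina3g occur in other genes of the annotation. Both hold the STAT motif TTCNNNGAA (read on both strands) in the 250 bases before their RefSeq start, as does Serpina3i, another gene of the cluster that is no member. The windows with 20 bases to each side are shown because the 2 members differ in their response although they share this feature, with the motif in capitals (RefSeq, GRCm38.p6, plus strand, chr12:104214403-104214451, chr12:104236094-104236142 and chr12:104263000-104263048).
Serpina3f: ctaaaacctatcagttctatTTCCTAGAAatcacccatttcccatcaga
Serpina3g: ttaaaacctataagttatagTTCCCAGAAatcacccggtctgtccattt
Serpina3i: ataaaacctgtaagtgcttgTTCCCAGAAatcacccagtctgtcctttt
The motif lies 121 to 113 bases before the start of Serpina3f, 33 to 25 before that of Serpina3g and 102 to 94 before that of Serpina3i. RefSeq holds another start of Serpina3f (position 104214633), from which the same site lies 210 to 202 bases upstream. The RefSeq start of Serpina3g (position 104236147) lies upstream of that of the annotation used for the coordinates above. Of the 49 bases shown, Serpina3f and Serpina3g have 32 (65.3%) in common. The motif was present in 7.02% of 32851 promoter windows of the same length, and a match is a description of letters. The ISRE core GAAANNGAA was found in 7.13% of windows and overlaps the STAT match in Serpina3f, and the NF-kB consensus in 7.25%, among them Serpina3g and Serpina3i.

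Serpina3f was measured at 3.49, 1.58 and 2.56 CPM in homozygous SCFA libraries (31 to 65 counts), against 12.95, 15.4 and 7.97 CPM in homozygous untreated libraries (159 to 300 counts). Control SCFA libraries had 1.95, 1.22 and 1.07 CPM, and control untreated libraries 1.08, 1.02 and 1.08 CPM. The homozygous untreated libraries stood above all others, and the homozygous SCFA libraries overlapped control SCFA. The log2 fold change of homozygous against control was 0.84 ± 0.37 under SCFA and 3.51 ± 0.39 without it, and SCFA against untreated gave -2.25 ± 0.36 in homozygous and 0.42 ± 0.39 in control libraries.

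Serpina3g did not share this. Its level was 21.02, 23.0 and 23.9 CPM in homozygous SCFA, 28.3, 29.9 and 25.05 in homozygous untreated, 11.6, 11.7 and 10.4 in control SCFA, and 11, 14.5 and 14.3 CPM in control untreated libraries. Both homozygous groups lay above both control groups, and homozygous SCFA lay below homozygous untreated in every library. The log2 fold change of homozygous against control was 1.01 ± 0.16 under SCFA and 1.07 ± 0.16 without it. The ratio of Serpina3f to Serpina3g counts was 0.0687 to 0.166 in homozygous SCFA libraries and 0.318 to 0.515 in homozygous untreated libraries, against 0.102 to 0.168 in control SCFA and 0.0704 to 0.0985 in control untreated libraries. For Serpina3n, whose 0 counts per library allow up to 3 counts or 0.142 to 0.178 CPM (counting error only), 6.90% of 50-base words are shared with other genes.

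C3 (chr17:57203970-57228136, mm10, minus strand) encodes the complement component on which all activation pathways converge. It had 264, 322 and 321 CPM in homozygous SCFA libraries, 270.1, 243 and 284 in homozygous untreated, 208, 197 and 174.5 in control SCFA, and 183, 285 and 227 CPM in control untreated libraries. Control SCFA lay below both homozygous groups, and control untreated overlapped every other group. The log2 fold change of homozygous against control was 0.65 ± 0.15 under SCFA and 0.20 ± 0.15 without it, the smallest differences among the measured members under each condition. With SCFA against untreated, the log2 fold change was 0.19 ± 0.15 in homozygous and -0.26 ± 0.15 in control libraries.

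C4b (chr17:34728380-34743882, mm10, minus strand) encodes complement component 4, which is cleaved in the classical and lectin pathways to build the C3 convertase. Its level was 12.3, 10.5 and 7.75 CPM in homozygous SCFA libraries (136 to 229 counts), against 2.49, 1.80 and 2.71 CPM in homozygous untreated, 2.28, 3.23 and 1.78 CPM in control SCFA, and 1.54, 2.89 and 1.22 CPM in control untreated libraries. Homozygous SCFA libraries stood above all others, and the other 3 groups overlapped. The log2 fold change of homozygous against control was 2.06 ± 0.37 under SCFA and 0.31 ± 0.37 without it, and SCFA against untreated gave 2.12 ± 0.37 in homozygous and 0.37 ± 0.37 in control libraries. Transcripts of C4b share 34.6% of their 50-base words with C4a, so that reads may have been divided or dropped between the copies. C4a itself had 16 counts over the homozygous SCFA libraries and 4, 1 and 1 over homozygous untreated, control SCFA and control untreated.

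Acod1 (chr14:103046977-103056573, mm10, plus strand) is the member in which all 4 groups were separate. It had 80.8, 84.4 and 89.1 CPM in homozygous SCFA, 109, 111 and 94.0 in homozygous untreated, 51.1, 48.5 and 45.45 in control SCFA, and 22.3, 26.9 and 25.8 CPM in control untreated libraries. Homozygous libraries lay above control libraries under both conditions, with a log2 fold change of 0.81 ± 0.12 under SCFA and 2.06 ± 0.13 without it. SCFA libraries lay below untreated libraries in homozygous mice (-0.30 ± 0.12) and above them in control mice (0.95 ± 0.12). Acod1, Lrg1, Hp and C3 share no 50-base word with another gene.

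**Figure D2:**
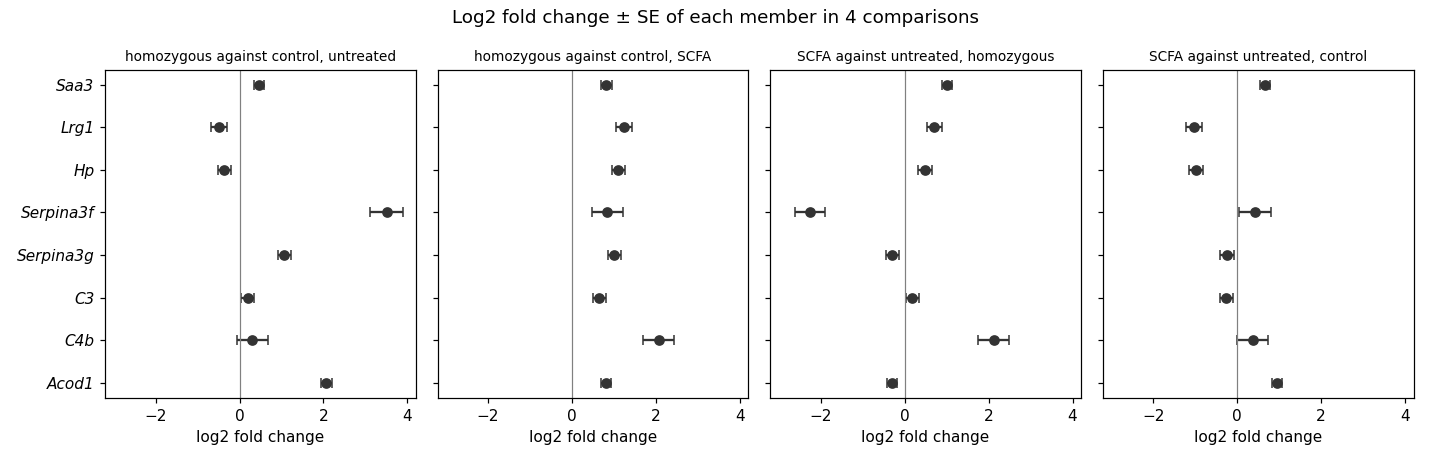
Log2 fold change (points) and SE (bars) of the 8 measured members in the 4 comparisons between groups, from 1 edgeR fit of 12 libraries. Under SCFA the 8 points of homozygous against control lie right of 0, between 0.65 and 2.06, whereas Lrg1 and Hp lie left of 0 without SCFA and for SCFA in control libraries.

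Counts of calls place the members beside all genes, where a call is a Benjamini-Hochberg adjusted p under 0.05 in edgeR over 15674 genes tested. The members were chosen from these same changes, so nothing is read from their counts. For homozygous against control without SCFA, 4 of 8 members were called, all higher, with 14.8% of all genes called, and 4 of 8 had groups that did not overlap, as did 32.4% of all genes. Under SCFA, 7 of 8 were called, all higher, with 17.4% of all genes called, and 7 did not overlap, as did 39.5% of all genes. With SCFA against untreated there were 3 higher and 1 lower in homozygous libraries (9.58% of all genes called) and 2 higher and 2 lower in control libraries (21.9%). Groups did not overlap for 6 and for 4 members in these 2 comparisons, and for 30.2% and 38.5% of all genes. The difference of the SCFA differences between genotypes was called for 5 of 8 members and for 25.1% of all genes. Its log2 value was 1.73 ± 0.26 for Lrg1, 1.47 ± 0.23 for Hp, 1.75 ± 0.52 for C4b, -1.25 ± 0.17 for Acod1 and -2.67 ± 0.53 for Serpina3f. For Saa3 it was 0.35 ± 0.17, for C3 0.45 ± 0.22 and for Serpina3g -0.06 ± 0.23. In homozygous against control without SCFA, 2 members were also called lower when control untreated 1 was left out. The 4 called higher there numbered 3 without control untreated 2 or 3 or homozygous untreated 1. The 3 higher with SCFA in homozygous libraries numbered 2 without homozygous untreated 1 or 2 or homozygous SCFA 2 or 3. They numbered 4 without control untreated 1 or 2 or homozygous SCFA 1. The 3 positive interaction calls numbered 2 without control untreated 2, homozygous untreated 2, control SCFA 1 or 3 or homozygous SCFA 1 or 2. Without control untreated 1 they numbered 4.

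The 250 bases before the start were read for 7 of the 9 members in RefSeq promoters (GRCm38.p6). Saa3 held an ISRE core and a C/EBP-type motif (TTGCNNAA, read on both strands), and C3 held a C/EBP-type motif, a motif present in 9.56% of windows. These matches are shown because Saa3 and C3 are acute phase genes classically tied to C/EBP factors, with the match in capitals and each sequence on its gene's strand (chr7:46715773-46715821, chr7:46715748-46715795 and chr17:57228154-57228201, minus strand).
Saa3 ISRE core: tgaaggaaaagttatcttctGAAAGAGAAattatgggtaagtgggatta
Saa3 C/EBP-type: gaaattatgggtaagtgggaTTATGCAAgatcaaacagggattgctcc
C3 C/EBP-type: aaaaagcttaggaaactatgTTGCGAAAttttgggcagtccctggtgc
Serpina3f held 2 C/EBP-type matches, and Lrg1, Serpina3n and Acod1 held none of the 4 motifs in this window.

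Genes whose pattern over the 12 libraries was nearest to each member were ranked by the root-mean-square difference of log2 CPM, each gene centred on its own mean, over the 9538 or 9539 other genes whose mean reached 5 CPM. Hp was the nearest gene to Lrg1 (0.0917), followed by Grina (0.0945) and Socs3 (0.0967), where the median over candidates was 0.606. Socs3 is the feedback inhibitor of gp130 cytokine signalling and a classical STAT3 target. Nearest to Hp were Grina (0.0553), Bad (0.0704) and Pld4 (0.0708), with a median of 0.548.

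Nearest to Serpina3f were Apol11b (0.369), Tgtp2 (0.565) and Rtp4 (0.609), with a median of 1.37 over candidates. Apol11b had 81.7 ± 5.92 CPM in homozygous SCFA and 304 ± 36.8 CPM in homozygous untreated, against 46.4 ± 4.53 CPM in control SCFA and 44.9 ± 5.93 CPM in control untreated libraries (SD, n = 3 each). For Serpina3g they were Igtp (0.175), Tap1 (0.186) and Mcpt8 (0.200), with a median of 0.612, and for Acod1 Gbp7 (0.303), Cd274 (0.321) and Ly6i (0.342), with a median of 0.849. Igtp, Tgtp2 and Gbp7 are interferon-induced GTPases and Tap1 a peptide transporter of antigen presentation, while Mcpt8 is a basophil protease.

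Saa3 was nearest to Hopx (0.212), Il1b (0.226) and H2-Aa (0.227), with a median of 0.621. Il1b, the gene of interleukin 1 beta, had 479.9 ± 21.4 CPM in homozygous SCFA and 292 ± 18.3 CPM in homozygous untreated, against 336 ± 16.1 CPM in control SCFA and 248 ± 5.61 CPM in control untreated libraries. C3 was nearest to Slc31a2 (0.107), Gstm1 (0.111) and Bid (0.113), with a median of 0.406, and C4b to Lrrc32 (0.488), Clca3a1 (0.562) and F2r (0.568), with a median of 1.05. Likeness is a description over libraries that share 4 groups, and Serpina3f and C4b, with few counts, had the largest distances.

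**Figure D3:**
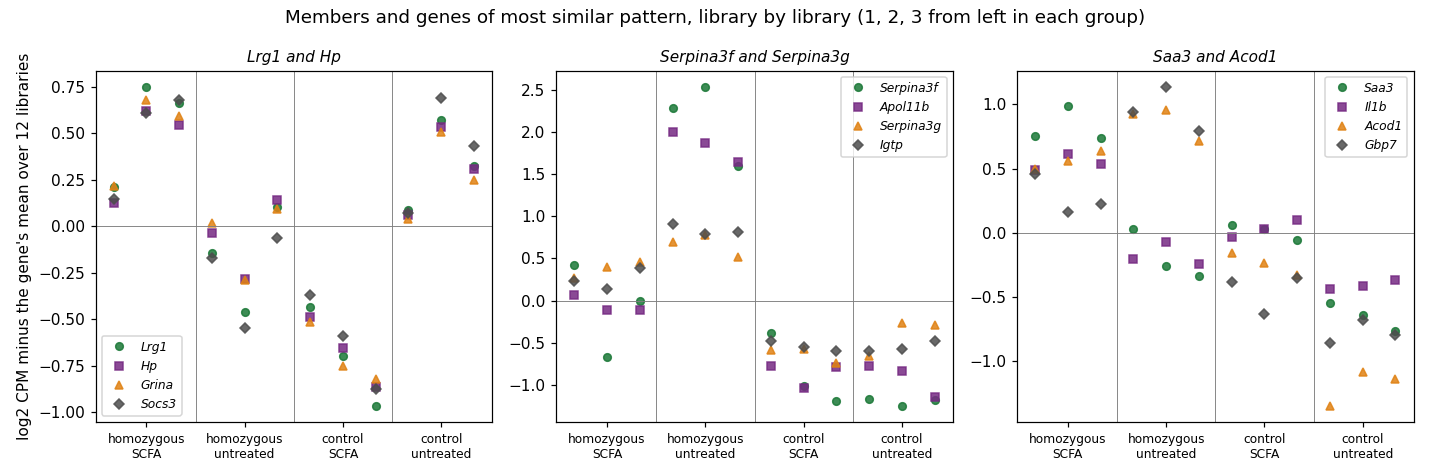
Log2 CPM of members and similar genes, each minus its own mean over 12 libraries (replicates 1 to 3 from left in each group). Lrg1, Hp, Grina and Socs3 move together with control SCFA lowest, Serpina3f and Apol11b peak in homozygous untreated libraries, and Acod1 and Gbp7 are high in both homozygous groups.

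Sums of markers of other cell types moved with several members. The 7 monocyte markers, none at 0 in any group, summed to 6863 to 7720 CPM in homozygous SCFA and 6949 to 7396 in homozygous untreated, against 5277 to 5938 in control SCFA and 4207 to 4873 CPM in control untreated libraries. For this sum both homozygous groups lay above both control groups, as they did for Acod1 and Serpina3g. Of the single monocyte markers, 5 of 7 rose in homozygous against control without SCFA (median log2 fold change 0.70) and 3 under SCFA (median 0.33), and 0 fell. With SCFA against untreated, 1 rose and 2 fell in homozygous libraries, and 3 rose and 2 fell in control libraries. The 8 macrophage markers, none at 0, summed to 701 to 718 CPM in homozygous SCFA, 475 to 557 in homozygous untreated, 542 to 585 in control SCFA and 394 to 428 CPM in control untreated libraries, and the sum was highest and lowest in the same groups as Saa3. Single macrophage markers did not all follow the sum, since 2 rose and 3 fell in homozygous against control without SCFA (median log2 fold change -0.53). The 4 megakaryocyte markers, none at 0, summed to 952 to 1152 CPM in homozygous SCFA and to 439.9 to 709 CPM in the other groups, and were highest where C4b was. Late neutrophil markers (10, none at 0) summed to 58680 to 78610 CPM in homozygous SCFA, homozygous untreated and control SCFA libraries and 36940 to 56080 CPM in control untreated libraries, although 4 rose and 4 fell with SCFA in control libraries (median -0.05). B lineage markers (8, with Rag1 at 0 in homozygous SCFA) summed to 92.7 to 111 CPM in homozygous SCFA, 367 to 402 in homozygous untreated, 1027 to 1052 in control SCFA and 1099 to 1289 CPM in control untreated libraries. The 6 erythroid markers, none at 0, summed to 1023 to 1262 CPM in homozygous SCFA and 4018 to 4843 in homozygous untreated libraries. Their sum was 4245 to 4755 in control SCFA and 8274 to 8859 CPM in control untreated libraries. It was lowest where Saa3 was highest and highest where Saa3 was lowest. Single erythroid markers did not all follow the sum. In homozygous against control without SCFA 2 of 6 fell and 0 rose (median log2 fold change -0.29). Under SCFA 4 fell and 1 rose. With SCFA against untreated, 5 fell in homozygous and 3 in control libraries, and 0 rose in either. The 4 plasmacytoid dendritic markers, none at 0, summed to 83.6 to 107 CPM in homozygous SCFA, 208 to 238 in homozygous untreated, 288 to 340.0 in control SCFA and 238 to 305 CPM in control untreated libraries. The part of these markers in the members' differences was not tested.

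Liver cells are the main source of plasma acute phase proteins, and their markers were at or near 0. The 8 hepatocyte markers summed to 0 to 0.570 CPM in homozygous SCFA, 0.0514 to 0.434 in homozygous untreated, 0.0593 to 1.27 in control SCFA and 0.0536 to 0.798 CPM in control untreated libraries. Ttr, the transthyretin gene, was at 0 in all 4 groups, and Alb, the albumin gene, was at 0 in 3 of them. The 9 stromal markers summed to at most 5.24 CPM outside control untreated and to 5.41 to 35.2 CPM within it.

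**Figure D4:**
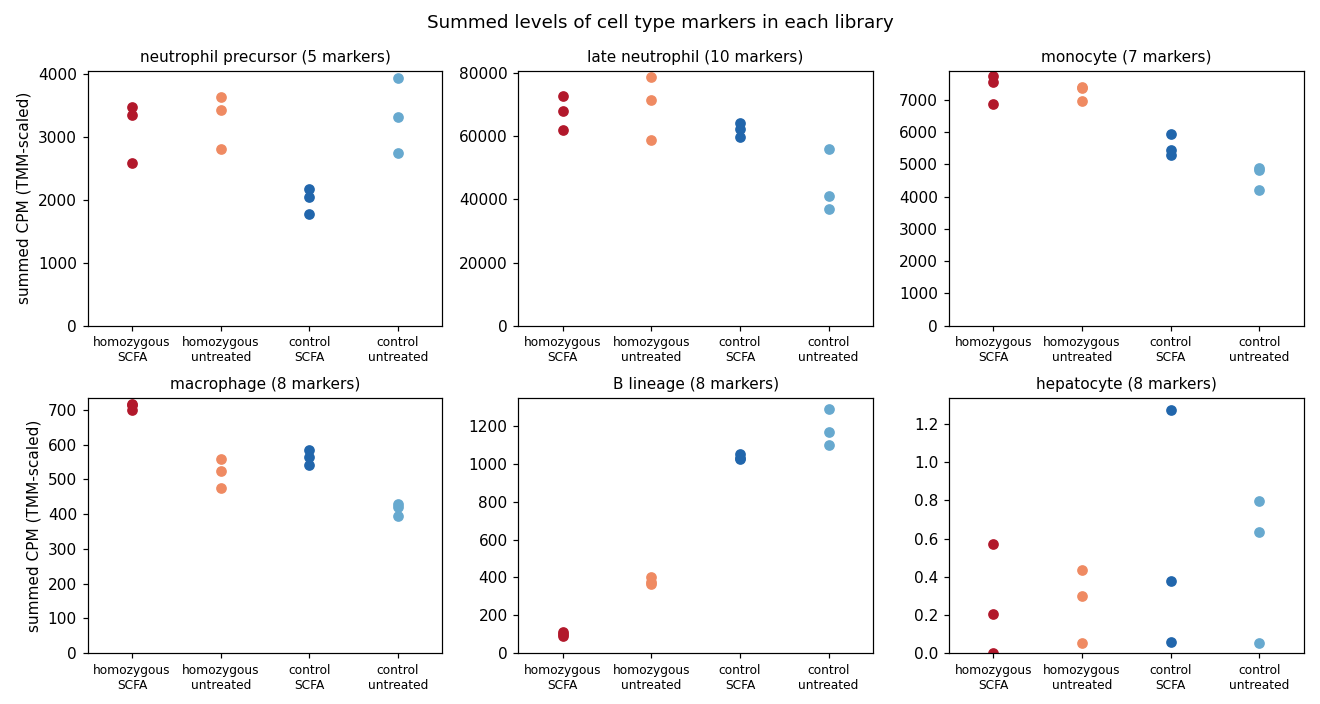
Summed CPM of the markers of 6 cell types in each library (points, 3 per group, linear axes from 0). Neutrophil precursor markers are lowest in control SCFA, monocyte markers are higher in homozygous libraries, macrophage markers are highest in homozygous SCFA, and hepatocyte markers stay at or below 1.27.

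Stat3, its feedback gene and the inducing cytokine were read beside the members. Gene counts do not show whether transcripts of the STAT3C transgene add to those of Stat3 in homozygous libraries. Stat3 had 363 ± 40.3 CPM in homozygous SCFA and 294 ± 27.3 CPM in homozygous untreated, against 239 ± 13.8 CPM in control SCFA and 357 ± 81.9 CPM in control untreated libraries. It rose in homozygous against control under SCFA by 0.60 ± 0.15 on the log2 scale (adjusted p = 0.0157), a call that failed without control SCFA 3 or homozygous SCFA 3 (adjusted p up to 0.0657), and had -0.28 ± 0.15 without SCFA (adjusted p = 0.221). Socs3 had 151 ± 28.5 CPM in homozygous SCFA and 90.0 ± 15.2 CPM in homozygous untreated, against 70.6 ± 12.3 CPM in control SCFA and 143 ± 30.2 CPM in control untreated libraries. Under SCFA it rose by 1.09 ± 0.20 (adjusted p = 0.00181), and without SCFA it fell by 0.67 ± 0.19 (adjusted p = 0.0355), the second call failing without control untreated 2 or 3, homozygous untreated 1 or 2, control SCFA 2 or homozygous SCFA 2 or 3 (adjusted p up to 0.167). For Socs3, SCFA against untreated in control libraries gave -1.02 ± 0.20 (adjusted p = 0.00613). Il6 was low, at 3.91 ± 0.38 CPM in homozygous SCFA, 3.35 ± 2.04 in homozygous untreated, 3.11 ± 1.57 in control SCFA and 0.998 ± 0.723 CPM in control untreated libraries, and its genotype difference did not pass (adjusted p = 0.74 under SCFA and 0.0701 without). These comparisons share libraries with each other, as do those of the members.

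Genes related to the members were read in 11 lists, and in this and the following paragraphs rises and falls are calls in edgeR. The lists were chosen with earlier results of these data known, so their counts are partly set by that choice. Of all genes tested, 17.4% were called for homozygous against control under SCFA and 14.8% without it. For SCFA against untreated the shares were 9.58% in homozygous and 21.9% in control libraries. Several lists lay near or below these shares. For homozygous against control under SCFA, other serpins (1 of 15) and tricarboxylic acid cycle enzymes (2 of 20) lay below. Macrophage activation genes (2 rises and 1 fall of 15) lay near. Of the 18 genes tested among STAT3 and its targets, 9 rose and 1 fell in homozygous against control under SCFA, with a median log2 fold change of 0.51 against -0.02 over all genes. Cebpb, a C/EBP factor of acute phase genes, rose by 1.11 ± 0.19 (adjusted p = 0.0013) and Junb, a subunit of the factor AP-1, by 1.01 ± 0.17 (adjusted p = 0.00104). Without SCFA 1 rose and 3 fell (median -0.29), among them the survival gene Bcl2l1 (-1.03 ± 0.18, adjusted p = 0.00247). In control libraries 1 was higher and 9 were lower with SCFA (median -0.57), and in homozygous libraries 4 were higher (median 0.15), with Junb up by 1.10 ± 0.17 (adjusted p = 0.000651). Single libraries set these counts: the 9 rises numbered 5 without control SCFA 3, and the 9 falls 3 without control untreated 2 and 2 without control SCFA 3. The 4 rises numbered 1 without homozygous untreated 2, homozygous SCFA 2 or homozygous SCFA 3, and the 3 falls 7 without control untreated 1 and 1 without homozygous untreated 1 or 2.

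Among other acute phase genes, 4 of 8 tested rose in homozygous against control under SCFA (median 0.68) and 2 of 8 without it (median 0.06). Steap4, a metalloreductase induced in inflammation, had 226.5 ± 24.3 CPM in homozygous SCFA and 259 ± 41.3 CPM in homozygous untreated, against 74.5 ± 3.77 CPM in control SCFA and 61.8 ± 10.8 CPM in control untreated libraries. It was 3.04-fold higher in homozygous libraries under SCFA (adjusted p = 4.58e-06) and 4.19-fold higher without it (adjusted p = 1.49e-06). Orm1, an orosomucoid, was 3.72-fold higher in homozygous untreated than in control untreated libraries (adjusted p = 0.00921). Pglyrp1, a peptidoglycan-binding granule protein, was 1.78-fold higher in homozygous SCFA than in control SCFA libraries (adjusted p = 0.00142). With SCFA 1 was higher and 4 were lower in control libraries, the 4 numbering 1 or 2 when any of 5 libraries was left out and none passing without control SCFA 3, where Pglyrp1 had an adjusted p of 0.0557 against 0.00839 with all libraries. In homozygous libraries 2 were higher and 1 lower with SCFA, the 2 failing together when any of 8 libraries was left out.

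Among other complement components, 7 of 11 tested rose in homozygous against control under SCFA (median 0.65), and 1 rose and 3 fell without it (median -0.85). The subunits of C1q, which starts the classical pathway, differed with treatment. C1qa fell by 1.11 ± 0.22 and C1qc by 0.90 ± 0.14 without SCFA (adjusted p = 0.00507 and 0.00108), and C1qb rose by 0.82 ± 0.17 under SCFA (adjusted p = 0.00517). In homozygous libraries C1qa, C1qb and C1qc were higher with SCFA by 2.04 ± 0.22, 1.64 ± 0.18 and 1.82 ± 0.14 (adjusted p at most 2.4e-05), 3 of the 4 rises there. C1qa had 17.9 ± 2.81 CPM in homozygous SCFA and 4.36 ± 0.79 CPM in homozygous untreated, against 10.5 ± 0.89 CPM in control SCFA and 9.41 ± 1.75 CPM in control untreated libraries. C1q genes are also among the macrophage markers above. Cfb, factor B of the alternative pathway, was 4.86-fold higher in homozygous than in control libraries without SCFA (adjusted p = 0.00399), and C1ra, a protease of the C1 complex, rose by 1.49 ± 0.34 under SCFA (adjusted p = 0.00834). In control libraries 1 was higher and 2 were lower with SCFA, with properdin (Cfp) at -0.79 ± 0.16 (adjusted p = 0.00719), and the 2 numbered 1 without control untreated 2 or 3 or control SCFA 2 or 3.

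Of 13 complement receptors and regulators, 4 rose and 2 fell in homozygous against control under SCFA (median -0.20), and 1 rose and 2 fell without it (median 0.02). Cd55, which speeds the decay of C3 convertases, fell by 0.93 ± 0.18 under SCFA (adjusted p = 0.00306), and Cd59a, which blocks the membrane attack complex, rose by 1.47 ± 0.30 (adjusted p = 0.00464). Clu, the chaperone clusterin, was higher with SCFA in homozygous libraries by 1.34 ± 0.17 (adjusted p = 9.86e-05), as was the C5a receptor C5ar1 by 0.52 ± 0.10 (adjusted p = 0.00536), 2 of 3 rises there. C3ar1, the receptor of the C3a fragment, was higher with SCFA in control libraries by 0.88 ± 0.16 (adjusted p = 0.00485), where 3 genes rose and 1 fell. The 3 rises in homozygous libraries numbered 5 without control untreated 2, and the 3 in control libraries 6 without control untreated 1. The 2 genotype falls under SCFA numbered 1 without control SCFA 2 or homozygous SCFA 2 or 3. The 2 without SCFA numbered 4 without control untreated 1 and 1 without control untreated 3 or control SCFA 2, and failed together without control untreated 2 or homozygous untreated 1 or 2.

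The protease list holds granule and lysosomal proteases, not all of which serpins inhibit. In homozygous against control under SCFA 8 of 11 rose (median 0.61), as did 1 of 15 other serpins (median 0.09). The difference between the lists was not tested. Granzyme B (Gzmb), a cytotoxic protease, had 7.23 ± 0.46 CPM in homozygous SCFA and 3.74 ± 0.50 CPM in homozygous untreated, against 0.827 ± 0.065 CPM in control SCFA and 0.514 ± 0.361 CPM in control untreated libraries. It was 8.69-fold higher in homozygous libraries under SCFA (adjusted p = 0.000401) and 7.21-fold higher without it (adjusted p = 0.00176). The neutrophil protease Prtn3 rose by 0.97 ± 0.18 under SCFA (adjusted p = 0.00204) and the lysosomal protease Ctsd by 0.85 ± 0.17 (adjusted p = 0.00301), and the 8 rises numbered 5 without control SCFA 3 or homozygous SCFA 3. Without SCFA 4 proteases rose and 1 fell, Ctsc (cathepsin C, which activates granule proteases) rising by 0.86 ± 0.10 (adjusted p = 7.08e-05), and the 4 numbered 2 without control untreated 3, homozygous untreated 1 or homozygous untreated 2. The 5 other serpins that rose without SCFA numbered 1 to 3 when any of 6 libraries was left out. In control libraries 1 protease was higher and 4 were lower with SCFA, Prtn3 by -0.87 ± 0.18 (adjusted p = 0.00701), and the 4 numbered 1 without control SCFA 3. Homozygous libraries had 1 protease and 2 other serpins higher and 1 other serpin lower with SCFA, and control libraries 2 other serpins higher, and every one of these serpin calls failed without at least 1 library.

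Osm, the gene of oncostatin M, a cytokine that signals through STAT3, was higher in homozygous SCFA than in control SCFA libraries by 1.08 ± 0.15 (adjusted p = 0.000294) and than in homozygous untreated libraries by 1.01 ± 0.15 (adjusted p = 0.000694). For Il1b these differences were 0.51 ± 0.10 and 0.72 ± 0.10 (adjusted p = 0.0031 and 0.000319), and both genes were the 2 of 5 tested cytokines that passed in each comparison. SCFA against untreated in control libraries gave -0.54 ± 0.15 for Osm (adjusted p = 0.0248) and 0.44 ± 0.10 for Il1b (adjusted p = 0.0105). That Il1b call failed without control SCFA 3, and that Osm call with only the libraries compared. None of the 5 cytokines passed in homozygous against control without SCFA. Of 13 receptors 7 rose and 1 fell in homozygous against control under SCFA (4 rises without control SCFA 3), among them the tumour necrosis factor receptors Tnfrsf1b (0.92 ± 0.16, adjusted p = 0.00125) and Tnfrsf1a (0.83 ± 0.16, adjusted p = 0.00314). Without SCFA 1 rose and 1 fell. In homozygous libraries 4 were higher with SCFA, with Csf3r, the G-CSF receptor, up by 0.84 ± 0.16 (adjusted p = 0.00469), and the 4 numbered 2 without homozygous untreated 1 or 2 or homozygous SCFA 2, and 1 without homozygous untreated 3 or homozygous SCFA 3. In control libraries 2 were higher and 1 lower with SCFA, and the 2 numbered 1 without control untreated 2 or 3, any homozygous untreated library, any control SCFA library or homozygous SCFA 3.

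Of 12 receptors and partners of the member proteins, 4 rose and 1 fell in homozygous against control under SCFA and 3 rose and 1 fell without it. Lrp1, which takes up complexes of serpins and proteases, rose by 1.44 ± 0.21 under SCFA (adjusted p = 0.000331). Scarb1, a lipoprotein receptor that binds serum amyloid A, rose by 1.07 ± 0.19 (adjusted p = 0.00155), and Acvrl1, a receptor through which Lrg1 protein acts, by 1.38 ± 0.29 (adjusted p = 0.00491). Without SCFA Fpr2, a chemotactic receptor of serum amyloid A, rose by 0.96 ± 0.18 (adjusted p = 0.00441) and Tgfbr2, a TGF-beta receptor, fell by 0.63 ± 0.11 (adjusted p = 0.0026), and the 3 rises numbered 1 without control untreated 2 or homozygous untreated 2. In control libraries 3 were higher and 4 lower with SCFA, with Lrp1 at -1.20 ± 0.21 (adjusted p = 0.0045) and Eng, endoglin, at -1.22 ± 0.24 (adjusted p = 0.00678), and in homozygous libraries 2 were higher. The 3 numbered 1 without control SCFA 2 and failed together without control SCFA 3, and the 2 failed together without homozygous untreated 1 or 2 or homozygous SCFA 2 or 3. Lrp1 had 201 ± 29.5 CPM in homozygous SCFA and 111 ± 22.4 CPM in homozygous untreated, against 74.0 ± 12.8 CPM in control SCFA and 171 ± 45.0 CPM in control untreated libraries, the same order of means as Lrg1 and Hp.

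Of 15 other macrophage activation genes, 2 rose and 1 fell in homozygous against control under SCFA and 3 rose and 3 fell without it. Arg1, an arginase of alternatively activated macrophages, fell by 1.35 ± 0.29 under SCFA (adjusted p = 0.00593) and by 1.36 ± 0.28 without it (adjusted p = 0.00772). Irf1, an interferon response factor, rose by 0.94 ± 0.17 under SCFA (adjusted p = 0.00166) and Clec4e, a receptor of mycobacterial lipids, by 1.02 ± 0.21 without it (adjusted p = 0.00637). The 3 falls numbered 1 without homozygous untreated 2. With SCFA 2 were higher in homozygous libraries, among them Ptgs2, the inducible cyclooxygenase, by 1.63 ± 0.32 (adjusted p = 0.00483), and 4 were higher and 3 lower in control libraries, where the 4 numbered 1 without control SCFA 3. The 3 lower numbered 1 without control SCFA 1 and failed together without control untreated 2, control SCFA 2 or control SCFA 3, and the 2 higher in homozygous libraries numbered 1 without homozygous untreated 1 or 3, control SCFA 2 or any homozygous SCFA library. Of the 20 enzymes of the tricarboxylic acid cycle, from which the substrate of Acod1 comes, 2 rose under SCFA and 3 rose and 1 fell without it, with medians of 0.09 and -0.01. The 2 numbered 4 without control untreated 1, 1 without control untreated 3, homozygous untreated 1 or control SCFA 1, and failed together without control SCFA 2 or 3 or homozygous SCFA 2 or 3. The 3 numbered 1 without control untreated 3 or homozygous untreated 3, and failed together without control untreated 2 or homozygous untreated 1 or 2. In control libraries 1 was higher and 7 were lower with SCFA, among them Idh2, mitochondrial isocitrate dehydrogenase (-0.73 ± 0.16, adjusted p = 0.00893). None of the 7 passed without control SCFA 3, where Idh2 had an adjusted p of 0.0539.

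Over the 141 genes tested in all 11 lists, 50 rose and 6 fell in homozygous against control under SCFA, and 24 rose and 15 fell without it. Among all 15674 genes tested, 1394 rose and 1328 fell under SCFA, and 1048 rose and 1275 fell without it. Because the lists were chosen with earlier results of these data known, nothing is read from this contrast. With SCFA 26 of the 141 were higher and 2 lower in homozygous libraries, where 621 of all genes tested were higher and 880 lower. In control libraries 20 of the 141 were higher and 36 lower, where 1393 of all genes tested were higher and 2039 lower. Single libraries moved these totals. The 56 calls in control libraries numbered 11 without control SCFA 3, 27 without control untreated 2 and 32 without control SCFA 2. The 39 genotype calls without SCFA numbered 17 without homozygous untreated 1 or 2, 20 without control untreated 2 and 21 without control untreated 3. The 28 calls in homozygous libraries numbered 13 without homozygous SCFA 3, 15 without homozygous SCFA 2 or homozygous untreated 1, and 17 without homozygous untreated 2.

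**Figure D5:**
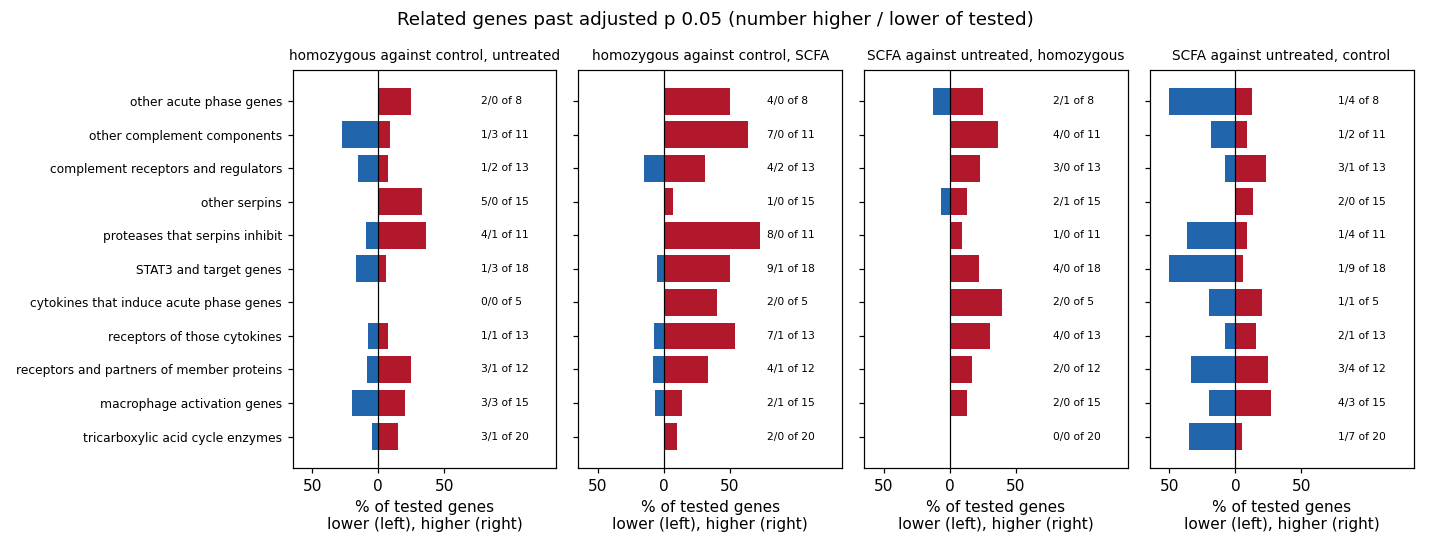
Percentage of tested genes in 11 lists of related genes that passed an adjusted p of 0.05 in edgeR, higher to the right and lower to the left, with the numbers beside each bar. The list labelled proteases that serpins inhibit also holds proteases that serpins do not inhibit. Under SCFA the bars of homozygous against control point mainly to the right, while for SCFA in control libraries the lists of STAT3 targets, acute phase genes and tricarboxylic acid cycle enzymes point mainly to the left.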

How the data were processed

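Poly(A) RNA of 12 libraries was sequenced after low-input amplification. The authors deposited 1 table of raw read counts per gene symbol, and STAR, featureCounts and the mm10 build are named per the submitters' processing notes, while for versions, annotation and use of strand the sources used here give nothing. All columns matched a library by name (0 columns were left over). Of 55291 symbols 22077 had 0 counts in all libraries, and 96.4% matched GENCODE gene names, used for positions and lengths.

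The counts were fitted in 1 edgeR quasi-likelihood model of all 12 libraries (R 4.3.3, edgeR 4.0.16, limma 3.58.1) with a mean per group, TMM factors and filterByExpr, leaving 15674 genes. Adjusted p-values are Benjamini-Hochberg over these, with 0.05 as the threshold, and all tests are two-sided. The SE of a log2 fold change is its size divided by the square root of F. The fit was tested on simulated data. The members and all lists were chosen with earlier results of these data known. Named in the text are all members, Stat3, Socs3, Il6, of each list and comparison at most the 3 called genes with the largest change and a mean of at least 1 CPM, and the 3 genes nearest each member in pattern, leaving out Gm and Rik gene models and antigen receptor segments. Serpina3i, Saa1 and C4a were named as relatives of members. Values of 2 single genes of these lists are not reported here. Floors of 3 counts per library cover counting error only. Alternatives were RLE factors, no filter, DESeq2 1.42.0, only the libraries compared, a replicate block, and each library left out in turn. Promoters came from RefSeq (GRCm38.p6) for 7 of the 9 members, and Hp and C4b had no entry. Figures used matplotlib 3.10.9 in Python 3.11.15.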

Additional observations from a re-analysis of the deposited data

Results flagged for a closer look

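The genes looked at here were Stat3 and the called genes of largest change in each list, not all of them named above. Those below had a difference with SCFA that differed between the genotypes (adjusted p under 0.05 in edgeR for the interaction). They had been picked for calls in comparisons that the interaction subtracts, so their number is partly set by that choice. Of all 15674 genes tested, 25.1% passed for the interaction. Each value is the log2 difference with SCFA in homozygous libraries minus that in control libraries, so a positive value is a higher SCFA difference in homozygous libraries. No explanation was tested.

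Acute phase and STAT3 genes were 1.15 for Pglyrp1, 1.18 for Cd14, -2.15 for Orm1 and -3.09 for Cp. The transcription and signalling genes were 1.73 for Junb, 1.76 for Socs3, 1.44 for Cebpb, 1.36 for Gadd45b, 1.27 for Il4ra and 0.88 for Stat3. Cytokine and receptor genes were 1.54 for Osm, 1.31 for Csf3r, 1.00 for Tnfrsf1b, 1.00 for Tnfrsf1a and -0.88 for Il1r2.

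Complement genes were 1.88 for C1qa, 1.55 for C1qc, 1.67 for C1qb, 1.11 for Cfp, 1.51 for Clu, 0.62 for C5ar1, 1.36 for Itgb2 and -0.83 for Cd55. Proteases and serpins were 0.98 for Prtn3, 1.46 for Ctsd, 0.84 for Elane, -0.43 for Ctsc and -0.74 for Serpinb1a. Partners of member proteins were 2.06 for Lrp1, 1.58 for Acvrl1, 1.38 for Scarb1, 0.80 for Hmox1 and -1.25 for Fpr2. Macrophage and tricarboxylic acid cycle genes were -1.02 for Clec4d, 0.78 for Ogdh, 0.78 for Sdhc and 0.77 for Mdh2. Of these 37 interactions 31 passed with each of the 12 libraries left out in turn. The other 6 kept their direction but failed without some libraries. Cp failed without control untreated 2, homozygous untreated 1 or 2, control SCFA 1 or 2 or any homozygous SCFA library (adjusted p up to 0.103). Cd55 failed without any library but control untreated 1, control SCFA 1 and homozygous SCFA 1 (up to 0.0862), and Ctsc without any but control untreated 1 and homozygous SCFA 1 (up to 0.118). Clec4d failed without control untreated 3, homozygous untreated 1 or 2, control SCFA 2 or 3 or homozygous SCFA 2 or 3 (up to 0.0841). Elane failed without control SCFA 3 or homozygous SCFA 2 (up to 0.0518), and Sdhc without those or homozygous untreated 1 (up to 0.0578).

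For 2 members SCFA and untreated libraries did not overlap in either genotype and differed in opposite directions. The interaction was 1.73 for Lrg1, higher with SCFA in homozygous and lower in control libraries, and -1.25 for Acod1, lower with SCFA in homozygous and higher in control libraries. No p-value is given for these 2 values, because the members were chosen from them.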

How the results depend on the processing

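The log2 fold changes of the 8 measured members kept their direction wherever they were called, under all alternatives run. Without control untreated 1, 4 member values moved by more than the spread between libraries, those of Acod1 (SCFA in control libraries 0.83, interaction -1.12), Serpina3g (interaction 0.12 against -0.06) and C3 (interaction 0.65 against 0.45). With only the libraries compared, 914 of 2323 genes and 19 of 39 related genes were called for homozygous against control without SCFA, and 2035 of 3432 genes and 32 of 56 related genes for SCFA in control libraries. DESeq2 called 2312 genes against 1501 for SCFA in homozygous libraries. Leaving out each library, calls ranged from 770 to 4333 for homozygous against control without SCFA (related genes 17 to 54), from 1431 to 3282 under SCFA, from 743 to 1998 for SCFA in homozygous libraries (related genes 13 to 37), from 613 to 5090 for SCFA in control libraries (related genes 11 to 72), and from 2455 to 5379 for the interaction. The cause was not tested. The replicate numbers did not pair the libraries: deviations correlated at -0.114 to 0.108 for equal and -0.127 to 0.123 for unequal numbers. With the replicate block 2067, 2447, 1282, 3249 and 3715 genes were called in the 5 comparisons, in the order above, each close to the count without it.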
